A study of Homo sapiens with 8 samples.

Results

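Vimentin and 9 proteins of the contractile actin apparatus were followed across a model of epithelial-mesenchymal transition (EMT) in human prostate cancer cells. The 10 genes are VIM, ACTA2, TAGLN, CALD1, CNN1, CNN2, CNN3, MYL9, TPM1 and TPM2, and they were taken by symbol. All 35 probe sets annotated to exactly 1 of these symbols were used, of 54613 probe sets that are not array controls. Probe sets with exactly 1 symbol numbered 41091 and cover 19775 genes. Vimentin is the intermediate filament protein of mesenchymal cells, and its appearance in a carcinoma cell is a standard mark of EMT. The other proteins belong to the actin filament and its coat. Smooth muscle actin polymerises into the filament, tropomyosins lie along it, caldesmon, the calponins and transgelin bind it, and myosin light chains regulate the motor that pulls on it. Genes of this group are transcribed under serum response factor in smooth muscle and myofibroblasts, and several are also read as markers of a mesenchymal or contractile state in tumor cells.

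Transcript levels were measured on Affymetrix oligonucleotide arrays, 1 array for each of 8 samples. PC3-Epi (1 array) is an epithelial population selected from PC3 cells, a line from a prostate cancer metastasis, that carry a luciferase vector. The EMT lines PC3-EMT1, PC3-EMT12 and also PC3-EMT14 (1 array each) are mesenchymal populations that were isolated after PC3-Epi cells had been cultured with human macrophages treated with IL4. PC3-EMT1 and PC3-EMT14 were also measured after lentiviral delivery of a scrambled shRNA (Scr, 2 arrays) or of sh4, an shRNA against ZEB1 (2 arrays), a transcriptional repressor that drives EMT. All 8 samples therefore descend from 1 luciferase-positive population, all were grown in RPMI with fetal bovine serum, and RNA was taken 2 days after plating. The sh4 samples carry an epithelial phenotype label and the Scr samples a mesenchymal one.

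The values are log2 expression values, so a difference of 1 is 2-fold. Array medians ran from 4.33 to 4.35 without transduction and from 6.19 to 6.23 with it, a difference in scale, so levels were compared only within each set of 4 arrays. A probe set was tested where at least 1 array of the comparison lay above the brightest of 27 Bacillus subtilis control probe sets, which stood at 4.56 in the untransduced and 6.00 in the transduced set. No label describes separate cultures, so p-values measure the spread between these arrays only, the single array of PC3-Epi is taken to have the spread of the EMT arrays, and the number of arrays limits the precision. Of 6 epithelial markers 3 fell in the EMT lines. CDH1, which encodes E-cadherin, stood at 11.31 in PC3-Epi and between 3.07 and 4.00 in the EMT lines, and the splicing factor ESRP1 at 11.15 and between 2.89 and 3.24. EPCAM fell by 3.35, while the keratins KRT8, KRT18 and KRT19 (-0.61, -0.48 and -0.30) did not pass the test. Of 3 prostate luminal markers on the array, TMPRSS2 fell by 1.09 and KLK2 and KLK3 did not pass. ZEB1 rose from 3.08 in PC3-Epi to between 6.50 and 7.12 in the EMT lines. Under sh4 it was lower by 0.74 in PC3-EMT1 and by 1.07 in PC3-EMT14, although this difference did not pass the test (limma, adjusted p = 0.244). Of 15 macrophage markers on the array, 10 lay under the control level on all 8 arrays, PTPRC, CD14, CD163 and LYZ among them. ITGB2 (8.44 in PC3-Epi, 8.00 to 8.08 in the EMT lines) and LAPTM5 (5.1 and 5.2 to 5.6) lay above it on all 8. CSF1R, AIF1 and ITGAM did so only on transduced arrays. Over all 15 markers the summed log2 level was 56.9 in PC3-Epi and 57.3 to 58.4 in the EMT lines. With Scr it was 82.1 to 84.2 and with sh4 84.1 to 84.5. Of 15 fibroblast and smooth muscle markers 6 lay under the control level on all 8 arrays, with COL1A2, COL3A1, LUM and POSTN among them. COL1A1, THY1, LMOD1 and ACTG2 lay above it on all 8. The sums over these 15, in the same order, were 63.1, 62.0 to 64.0, 85.3 to 87.8 and 87.5 to 88.0. Both sums take in markers under the control level, so they hold much background and cannot show a small part of such cells. Of the markers tested in these lists (2 and 5), no marker of either list other than the smooth muscle actin ACTG2 passed the test between PC3-Epi and the EMT lines.

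VIM spans chr10:17228241-17237593 and CALD1 spans chr7:134711499-134970729, in the RefSeq annotation of assembly GRCh38.p14. RefSeq promoter windows, from 250 bases before to 50 after an annotated start, were at hand for 8 of the 10 genes (14 windows), and not for TAGLN and MYL9. CALD1 had 4 windows along the gene, the most of any member. The 250 bases before the start are shown for VIM, the member that rose most. They are also shown for 1 start each of CALD1 and TPM1, the members that fell, and for CNN2. CNN2 is the single member whose window holds a strict CArG box, CCWWWWWWGG with W for A or T. The CArG box is the site of serum response factor. Near matches with another letter in the middle, such as CCCTATATGG and CCTTGTTTGG in an ACTA2 window, were not counted. Capitals mark the CArG box, GGAATG (the core that TEAD factors bind) and GGGCGG (the GC box), each searched on both strands.
VIM promoter: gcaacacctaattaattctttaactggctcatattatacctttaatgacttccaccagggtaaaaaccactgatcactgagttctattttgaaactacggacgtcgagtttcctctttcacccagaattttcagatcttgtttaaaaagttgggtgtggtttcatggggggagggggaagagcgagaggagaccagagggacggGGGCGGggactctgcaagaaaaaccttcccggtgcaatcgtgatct
CALD1 promoter: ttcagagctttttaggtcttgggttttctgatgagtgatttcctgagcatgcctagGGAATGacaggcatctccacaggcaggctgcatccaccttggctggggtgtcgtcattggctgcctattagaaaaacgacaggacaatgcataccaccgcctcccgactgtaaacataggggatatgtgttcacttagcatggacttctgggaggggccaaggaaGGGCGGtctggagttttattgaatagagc
TPM1 promoter: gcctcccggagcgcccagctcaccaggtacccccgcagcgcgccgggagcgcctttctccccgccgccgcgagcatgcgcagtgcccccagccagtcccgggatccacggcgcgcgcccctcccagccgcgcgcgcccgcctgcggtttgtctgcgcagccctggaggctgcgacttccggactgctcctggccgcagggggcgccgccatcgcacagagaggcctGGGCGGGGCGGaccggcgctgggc
CNN2 promoter: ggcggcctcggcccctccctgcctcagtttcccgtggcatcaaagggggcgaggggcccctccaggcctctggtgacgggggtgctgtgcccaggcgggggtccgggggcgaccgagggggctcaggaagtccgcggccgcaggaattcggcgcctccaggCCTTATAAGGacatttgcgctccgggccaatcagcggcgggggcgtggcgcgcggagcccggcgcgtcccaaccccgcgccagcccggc
The windows shown are chr10:17227991-17228240 for VIM, chr7:134779384-134779633 for CALD1, chr15:63048239-63048488 for TPM1 and chr19:1026358-1026607 for CNN2, all on the plus strand. The strict CArG box was found in 1 of the 14 member windows and in 1.29% of all 35116 windows of the same length. CACCTG, the E-box that ZEB1 binds, was in 0 of the 14 and in 20.6% of all windows. GGAATG was in 4 of the 14 (ACTA2, 2 of CALD1 and CNN3) against 14% of all, and GGGCGG in 9 of the 14 against 45%. In TPM1, 2 copies of GGGCGG overlap and form 1 run of capitals. These matches describe the letters in the windows and say nothing of binding in these cells.

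Between PC3-Epi and the EMT lines, vimentin and smooth muscle actin rose while caldesmon and tropomyosin 1 fell. Of the 35 probe sets, 23 were tested, which cover 9 of the 10 genes, and the other 12 lay under the control level on these 4 arrays. With limma over all 27734 probe sets tested, 2 of the 23 were higher in the EMT lines at an adjusted p under 0.05 (VIM and ACTA2) and 7 were lower (4 of CALD1 and 3 of TPM1). Over all probe sets tested, 9.89% were higher and 14.6% lower. A change of 2-fold or more in every EMT line was seen in 1 member probe set upward, that of VIM, and 4 downward, against 2.02% and 4.71% of all probe sets tested. PC3-Epi lay outside the range of the 3 EMT lines in 20 of the 23, as it did in 80.3% of all probe sets tested. The median difference over the 23 was -0.41, and over all probe sets tested it was 0.05. Of the 23, however, 6 were of CALD1 and 5 of TPM1, so this median and the count of 7 lower lean on these genes. With 1 probe set a gene, 2 of the 9 tested members were higher and 2 lower, and the median was -0.06. In whole cell RNA, fewer cells that make a transcript and less of it per cell cannot be told apart. The part of other cells in these differences was not tested beyond the marker levels given above.

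**Figure D1:**
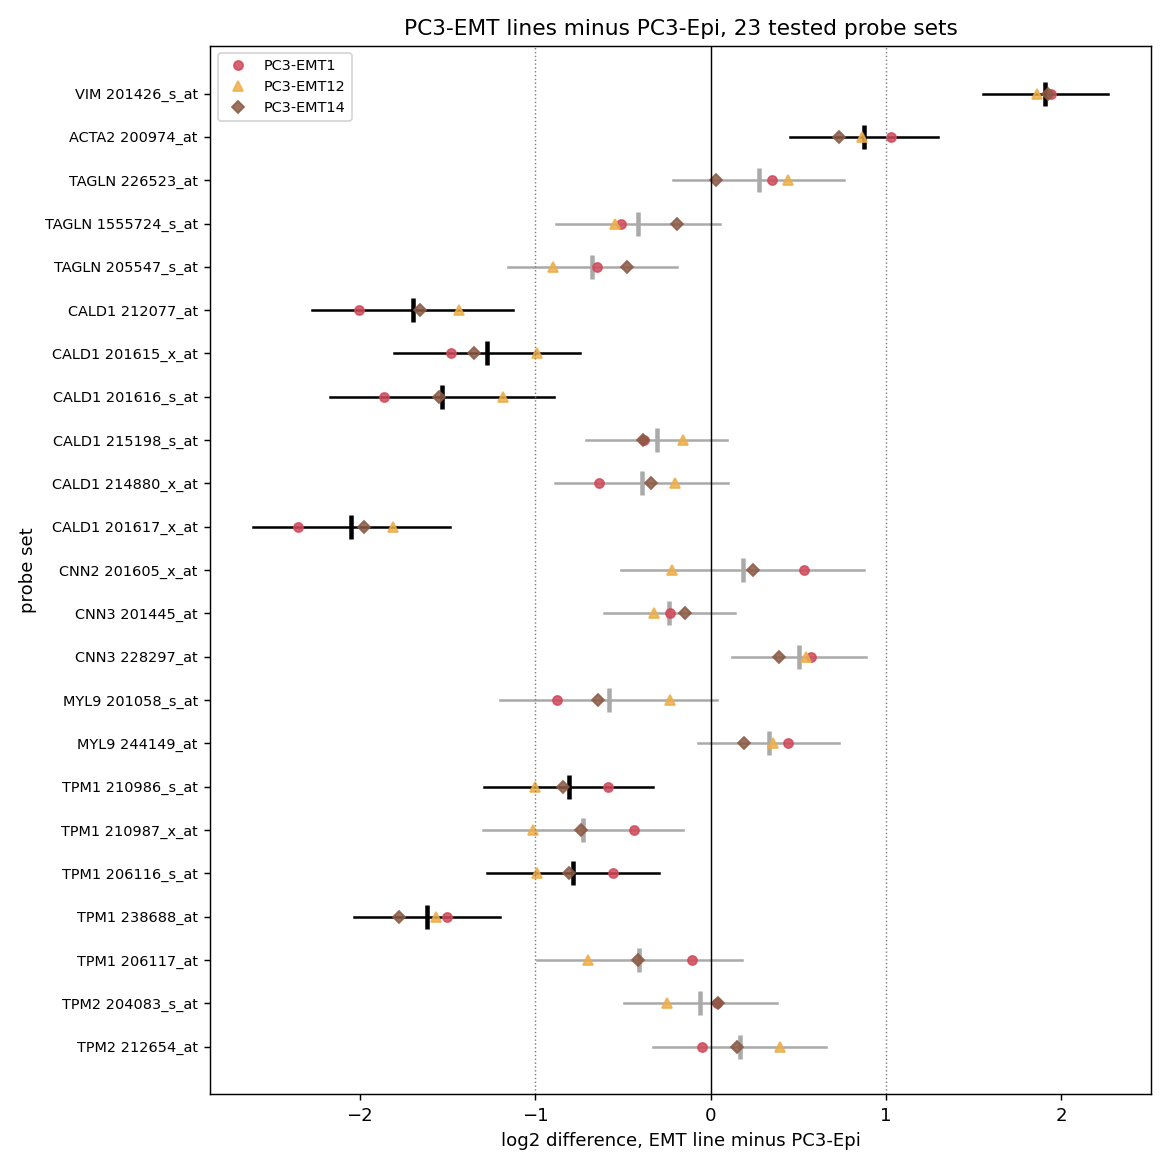
Differences between each EMT line and PC3-Epi on the log2 scale (x axis) for the 23 tested probe sets (y axis). Points are the 3 lines, the vertical tick is the mean, the horizontal bar its 95% confidence interval from limma, black where the adjusted p is under 0.05 and grey otherwise, and dotted lines mark 2-fold. VIM lies farthest to the right, and ACTA2 is the other black bar on that side. To the left, 4 CALD1 probe sets and 1 of TPM1 lie farthest.

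Vimentin was the member with the largest rise. Its main probe set, 201426_s_at, measured 11.25 in PC3-Epi, 13.19 in PC3-EMT1, 13.11 in PC3-EMT12 and 13.17 in PC3-EMT14. The 3 EMT lines lay close together (SD 0.04) and all above PC3-Epi, whose own value was far above the control level. The difference was 1.91 ± 0.15 (SE, 95% confidence interval 1.55 to 2.26), a 3.75-fold rise with a limma adjusted p of 0.00098, and it ranked 190 from the highest among the differences of all 27734 probe sets tested. The second VIM probe set, 1555938_x_at, read between 2.35 and 2.48 on these arrays, under the control level, and was not tested. Averaged over both probe sets the VIM difference was 0.93 and passed (limma, adjusted p = 0.00488).

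The smooth muscle alpha actin gene ACTA2, the classical mark of the myofibroblast, rose from a low level. Probe set 200974_at gave 4.53 in PC3-Epi, 5.56 in PC3-EMT1, 5.39 in PC3-EMT12 and 5.27 in PC3-EMT14. PC3-Epi lay just under the control level and the 3 lines above it, so the rise is at least 1.8-fold. The fitted difference was 0.88 ± 0.17 (SE, limma adjusted p = 0.0183). With 32 added on the linear scale it was 0.43 (adjusted p = 0.0404). The other 2 ACTA2 probe sets stayed under the control level on all 8 arrays, and averaged with them ACTA2 was too dim to be tested.

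CALD1 showed the broadest fall of the members. Its product caldesmon binds actin and tropomyosin and holds back the myosin ATPase. In the brightest probe set, 212077_at, PC3-Epi measured 9.74, PC3-EMT1 7.73, PC3-EMT12 8.31 and PC3-EMT14 8.08. No EMT line came near PC3-Epi, and the difference was -1.70 ± 0.24 (SE, limma adjusted p = 0.0066), a 3.25-fold fall. The steepest fall was that of 201617_x_at, which read 6.54 in PC3-Epi, 4.19 in PC3-EMT1, 4.73 in PC3-EMT12 and 4.57 in PC3-EMT14. Here the lines reached or neared the control level. That difference was -2.05 ± 0.23 (SE, limma adjusted p = 0.0035). Probe sets 201616_s_at and 201615_x_at fell by 1.53 and by 1.27 (limma, adjusted p = 0.0122 for each).

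The CALD1 probe sets did not all move alike. Of 11, 6 were tested and all 6 lay lower than PC3-Epi in each line, but 215198_s_at (-0.31 ± 0.17) and 214880_x_at (-0.39 ± 0.20) did not pass the limma test (adjusted p = 0.215 and 0.199). The letters s and x in a name mark probes that match several transcripts or could cross-hybridise, and the transcript that each set reads was not analysed here. In each of the 4 called probe sets PC3-EMT1 was the lowest line, PC3-EMT14 the middle and PC3-EMT12 the highest. With 1 array a line, this order has no test. All 4 passed again when any 1 of the lines was left out. The average over all 11 probe sets, dim ones included, fell by 0.80 (limma, adjusted p = 0.0132).

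Tropomyosin 1, which lies in the groove of the actin filament and gates myosin, also fell, by less. The brightest TPM1 probe set, 210986_s_at, stood at 10.97 in PC3-Epi, 10.38 in PC3-EMT1, 9.97 in PC3-EMT12 and 10.13 in PC3-EMT14. All 3 lines lay lower than PC3-Epi, by 0.81 ± 0.20 on average (SE, limma adjusted p = 0.033), a 1.75-fold fall. Probe set 206116_s_at fell by 0.78 (adjusted p = 0.0378), and 210987_x_at had a like difference, -0.73, that missed the threshold (limma, adjusted p = 0.0682). Probe set 238688_at measured 5.75 in PC3-Epi, 4.24 in PC3-EMT1, 4.18 in PC3-EMT12 and 3.97 in PC3-EMT14. All 3 lines were under the control level, so the fall is at least 2.27-fold (fitted difference -1.62, limma adjusted p = 0.0028). PC3-EMT1 was the highest of the lines in all 5 tested TPM1 probe sets. The call of 238688_at held with any 1 line left out, at differences of -1.67 to -1.54. Without PC3-EMT14, 210986_s_at and 206116_s_at no longer passed (limma, adjusted p = 0.0883 and 0.0961), with differences of -0.79 and -0.77. Without PC3-EMT1, 210987_x_at passed (adjusted p = 0.0244).

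The remaining actin-binding members did not pass the test, and their intervals bound how far they may have moved. Transgelin, an early smooth muscle marker that bundles actin, gave 5.77 in PC3-Epi, 6.12 in PC3-EMT1, 6.21 in PC3-EMT12 and 5.80 in PC3-EMT14 with probe set 226523_at. That difference, 0.28, has an interval of -0.21 to 0.76. The other TAGLN probe sets leaned the other way, 1555724_s_at by -0.41 and 205547_s_at by -0.67 (limma, adjusted p = 0.0541), the latter with every EMT line under the control level. It passed without PC3-EMT12 (adjusted p = 0.0464).

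Calponins stabilise actin filaments, CNN1 in smooth muscle and CNN2 and CNN3 more widely. CNN1 (203951_at) stayed under the control level on all 4 untransduced arrays, with 4.19 in PC3-Epi and 4.33 to 4.56 in the EMT lines, and was not tested. CNN2 (201605_x_at) read 8.12 in PC3-Epi, 8.65 in PC3-EMT1, 7.89 in PC3-EMT12 and 8.36 in PC3-EMT14, so the lines fell on both sides of PC3-Epi (difference 0.18, interval -0.51 to 0.88, and 0.011 without PC3-EMT1 or 0.39 without PC3-EMT12). For CNN3, 201445_at gave -0.23 (interval -0.61 to 0.14) and 228297_at gave 0.50 (interval 0.12 to 0.88, limma adjusted p = 0.063), opposite in sign.

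MYL9, the regulatory light chain of smooth muscle and non-muscle myosin, stood at 7.16 in PC3-Epi, 6.28 in PC3-EMT1, 6.93 in PC3-EMT12 and 6.52 in PC3-EMT14 (201058_s_at). The difference was -0.58 with an interval of -1.20 to 0.04, and PC3-EMT12 was nearest to PC3-Epi. Without PC3-EMT12 it was -0.76 and passed (limma, adjusted p = 0.0274). The dimmer MYL9 probe set 244149_at gave 0.33, of the other sign. TPM2, a tropomyosin of muscle and fibroblasts, had 4.97 in PC3-Epi and 5.00, 4.72 and 5.01 in the 3 lines (204083_s_at), a difference of -0.06 with an interval of -0.49 to 0.38. Its second tested probe set, 212654_at, gave 0.17.

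**Figure D2:**
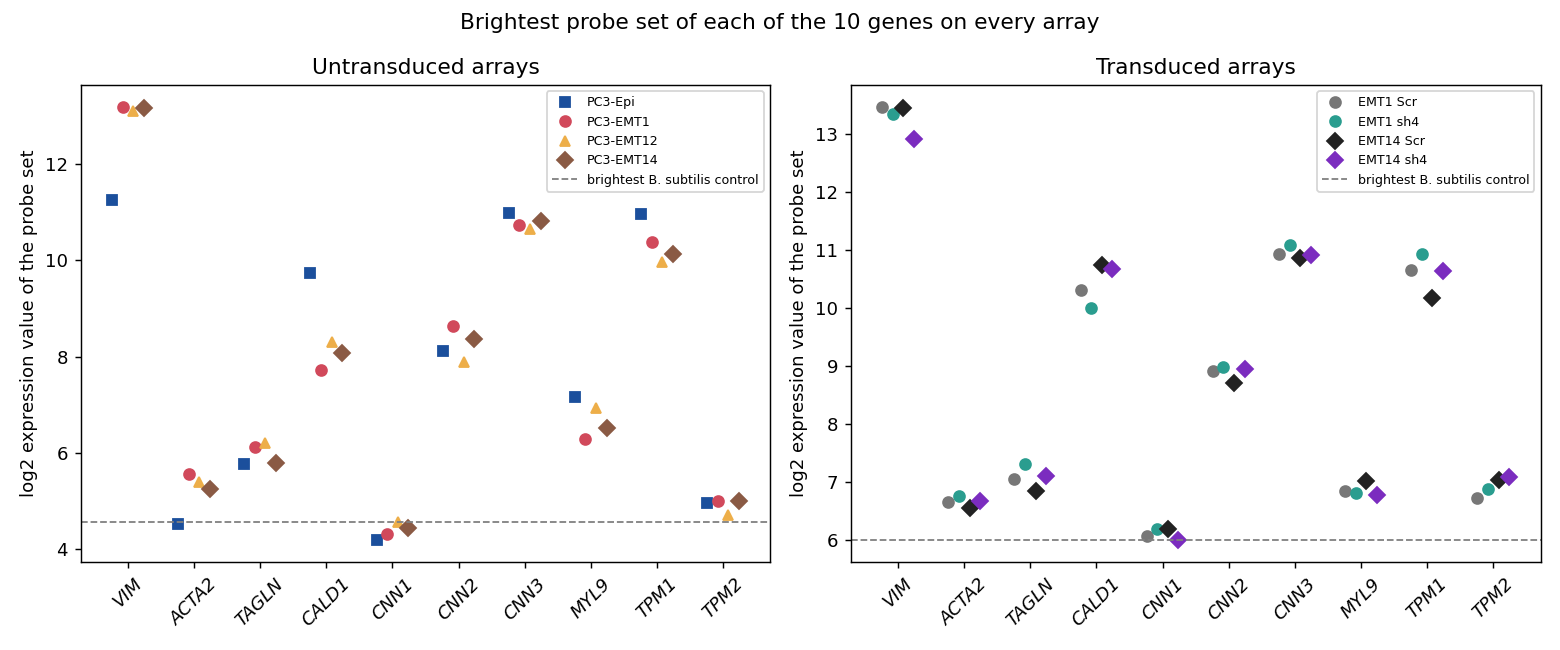
Log2 expression value (y axis) of the probe set with the highest mean for each of the 10 genes (x axis) on the 4 untransduced arrays (left) and the 4 transduced arrays (right). Each point is 1 array, the dashed line is the brightest Bacillus subtilis control of that set, and levels of different genes or of the 2 panels are not comparable. In the left panel PC3-Epi lies below the EMT lines for VIM and ACTA2 and above them for CALD1 and TPM1, and in the right panel sh4 and Scr of a line lie close together.

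Patterns like that of vimentin over the 8 arrays were sought by the Euclidean distance of values centred within each set, among 12535 genes. The 5 nearest were ADARB1, PBXIP1, SELENBP1, SHISA4 and CHSY3, at distances of 0.348 to 0.419 log2 units. They were higher in the EMT lines by 1.99, 1.59, 1.49, 1.63 and 1.88, and their differences under sh4 ran from -0.44 to -0.05. None of the 5 is an intermediate filament gene.

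Other genes of the filament and contractile systems were read from lists, each gene by its probe set with the highest mean. Over the 12824 genes tested in this way, 12% were higher and 14.1% lower in the EMT lines at an adjusted p under 0.05, and the median difference was 0.08. By the same reading 2 of the 9 tested members were higher, 2 were lower and 5 did not pass, with a median of -0.06.

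Among 13 intermediate filament and lamina genes 9 were tested, 4 were higher and 0 lower, with a median of 0.48. Neurofilament light chain NEFL was higher by 1.67, the progenitor filament nestin (NES) by 0.98, lamin A/C (LMNA) by 0.80 and the cross-linker plectin (PLEC) by 0.60. Desmin, DES, the muscle filament that partners vimentin in muscle, gave 0.35 and did not pass (limma, adjusted p = 0.164). LMNA and PLEC no longer passed without PC3-EMT14 (limma, adjusted p = 0.0580 and 0.131).

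Of 4 other actin genes 2 were tested. Smooth muscle gamma actin ACTG2 measured 8.96 in PC3-Epi, 6.15 in PC3-EMT1, 5.23 in PC3-EMT12 and 6.58 in PC3-EMT14, and fell by 2.97 on the log2 scale (limma, adjusted p = 0.00979, and -1.41 as the average of its probe sets), while cytoplasmic ACTB gave 0.05. ACTG2 and ACTA2, both smooth muscle actins, thus differed in opposite directions. The ACTG2 promoter window (chr2:73892758-73893007, plus strand) holds 2 CArG boxes of the same strict form, in capitals.
ACTG2 promoter: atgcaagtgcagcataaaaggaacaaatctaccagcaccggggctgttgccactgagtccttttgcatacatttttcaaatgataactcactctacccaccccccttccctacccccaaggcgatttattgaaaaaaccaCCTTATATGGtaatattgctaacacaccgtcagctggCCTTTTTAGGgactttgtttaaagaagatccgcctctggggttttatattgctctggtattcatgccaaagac
Of 7 further tropomyosin, transgelin and tropomodulin family genes 6 were tested. The neuronal transgelin TAGLN3 was higher by 3.01 and the pointed-end capping protein TMOD3 lower by 1.56, while TPM4 and TAGLN2 gave -0.05 and -0.06. Among 9 myosin genes, 8 of them tested, myosin light chain kinase MYLK was higher by 0.98 and the non-muscle heavy chain MYH10 lower by 1.04. MYH9, the other major non-muscle heavy chain, gave 0.02.

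Stress fibre and cross-linking proteins moved both ways. Of 18 on the array 17 were tested, with 4 higher and 3 lower and a median of 0.22. Synaptopodin, SYNPO, rose from 5.01 in PC3-Epi to 7.94, 7.57 and 7.98 in the 3 lines, a difference of 2.82, and smoothelin, SMTN, rose by 1.24. PDLIM1 was higher by 0.99 and CSRP1 by 0.73, whereas LIMCH1, which activates non-muscle myosin, was lower by 1.24, LIMA1 by 0.86 and palladin, PALLD, by 0.69. Without PC3-EMT14, CSRP1, LIMCH1, LIMA1 and PALLD did not pass (limma, adjusted p = 0.0960, 0.0619, 0.0644 and 0.0845).

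Regulators of serum response factor and TEAD gave 0 higher and 3 lower of 11 tested, at a median of -0.09. The co-activator MRTFB fell by 1.17, the TEAD partner VGLL3 by 1.79 to under the control level (at least 1.57-fold) and TEAD1 by 0.83, and TEAD1 did not pass without PC3-EMT14 (limma, adjusted p = 0.0974) or without PC3-EMT1 (0.0533). SRF itself gave 0.01. Among 14 target genes of these factors, of which MYL9 is one, 11 were tested, 3 were higher and 1 lower, and the median was 0.20. CCN2, the connective tissue growth factor, rose from 8.50 to 11.09, 11.06 and 11.12, a difference of 2.59. TGFB1I1 (0.75) and AXL (0.56) were higher, and EGR1 was lower (fitted difference -0.76), by at least 1.38-fold, with all 3 lines under the control level. These 3 did not pass without PC3-EMT14 (limma, adjusted p = 0.0798, 0.148 and 0.0602), nor did AXL without PC3-EMT1 (0.0643).

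Knock-down of ZEB1 moved the members little. With limma over 31363 probe sets and the cell line as a block, 0 of the 23 tested member probe sets passed, and 0% of all probe sets did (lowest adjusted p = 0.0664 over all and 0.280 over the members). At an unadjusted p under 0.05 there were 3 of the 23, against 14.4% of all probe sets. A change of 2-fold or more in both lines was seen in 0 members and in 0.367% of all. By size alone, 9 of the 23 were higher in both lines, 8 lower in both and 6 opposite. The fitted differences lay between -0.65 and 0.39, with a median of 0.05 against -0.01 over all probe sets tested. The widest intervals reached -1.05 and 0.99, so a 2-fold difference lay inside the interval of 1 probe set, CALD1 201617_x_at, and outside those of the rest. Over the same arrays, by the mean of both sh4 arrays, CDH1 was at least 12.9-fold and ESRP1 at least 6.01-fold higher than with Scr. Both Scr arrays lay under the control level for each gene, so these folds are against that level. Neither passed (fitted differences 3.94 and 3.81, limma adjusted p = 0.0664 and 0.0921).

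Vimentin stayed high after the knock-down. In PC3-EMT1 it measured 13.46 with Scr and 13.34 with sh4, and in PC3-EMT14 13.44 with Scr and 12.90 with sh4. Both sh4 arrays were lower than the Scr array of their line, by 0.13 and by 0.54. The mean difference was -0.33 ± 0.15 (SE, limma adjusted p = 0.397), with an interval of -0.74 to 0.08, which leaves out a 2-fold fall.

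The 3 members at an unadjusted p under 0.05 were 1 probe set each of CALD1, MYL9 and TPM1. CALD1 201617_x_at measured 6.67 with Scr and 6.22 with sh4 in PC3-EMT1, and 6.83 with Scr and 5.99 with sh4 in PC3-EMT14, a difference of -0.65 (limma, adjusted p = 0.280). All 6 tested CALD1 probe sets were lower with sh4 in both lines, the brightest, 212077_at, by 0.30 in PC3-EMT1 and by 0.07 in PC3-EMT14. TPM1 210986_s_at measured 10.66 with Scr and 10.93 with sh4 in PC3-EMT1, and 10.18 with Scr and 10.64 with sh4 in PC3-EMT14, a difference of 0.37 (limma, adjusted p = 0.328). MYL9 244149_at was higher by 0.40 and 0.38, and the brighter MYL9 201058_s_at gave -0.04 and -0.24.

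Of the 9 probe sets that passed between PC3-Epi and the EMT lines, 4 had the opposite sign under sh4, that of VIM and 3 of TPM1. The other 5, that of ACTA2 and 4 of CALD1, had the same sign in both comparisons, which share cell lines but no array. Probe sets of the same gene are not separate members, and the 9 come from VIM, ACTA2, CALD1 and TPM1 only. The share with opposite signs among all probe sets that passed was not computed, so this split has no array-wide rate beside it. Of the 3 TPM1 probe sets only 210986_s_at was higher with sh4 in both lines. TPM1 206116_s_at and 238688_at had mean differences of 0.02 and 0.05, with opposite signs in the 2 lines. ACTA2 measured 6.66 with Scr and 6.77 with sh4 in PC3-EMT1, and 6.56 with Scr and 6.67 with sh4 in PC3-EMT14. TAGLN (226523_at) measured 7.06 with Scr and 7.31 with sh4 in PC3-EMT1, and 6.85 with Scr and 7.10 with sh4 in PC3-EMT14. For both genes the difference was equal in the 2 lines (0.11 and 0.25) to within 1e-06, so their errors rest on the limma prior alone. Such equality was found in 0.335% of all probe sets, against 0.011% for a difference within the untransduced arrays set beside one within the transduced set, and its origin was not tested.

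**Figure D3:**
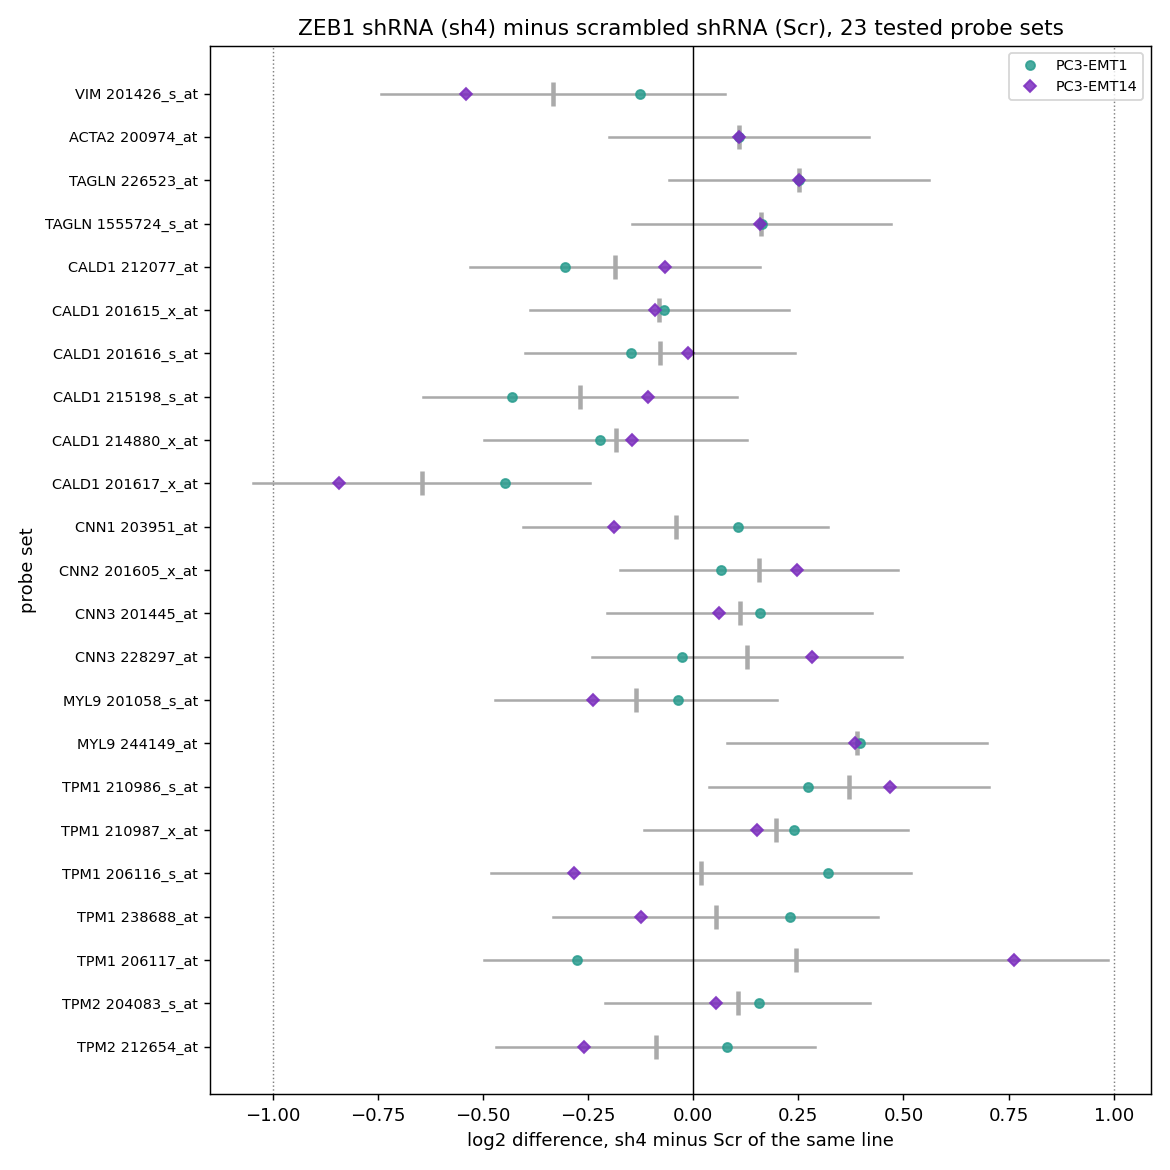
Differences between sh4 and Scr of the same line on the log2 scale (x axis) for the 23 tested probe sets (y axis). Circles are PC3-EMT1, diamonds PC3-EMT14, ticks the mean and bars the 95% confidence interval from limma, all grey because none passed, and dotted lines mark 2-fold. All points lie between -0.84 and 0.76, and the 6 CALD1 probe sets lie left of 0 in both lines.

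The calponins and TPM2 were also near 0 under sh4. CNN1, here above the control level on 3 of 4 arrays, gave 0.11 in PC3-EMT1 and -0.19 in PC3-EMT14, and CNN2 gave 0.07 and 0.25. CNN3 201445_at gave 0.16 and 0.06, and TPM2 204083_s_at gave 0.16 and 0.05. Among the listed genes, 0 passed in any list. CCN2 was lower under sh4 by 0.93 and 0.82 in PC3-EMT1 and PC3-EMT14, and MYLK by 0.70 and 0.42, with limma adjusted p values of 0.227 and 0.280. Other listed genes moved otherwise. The lamina gene LMNB1 was higher under sh4 by 0.29 and 1.29 in the same lines (limma, adjusted p = 0.329). LIMCH1, lower in the EMT lines, was lower under sh4 as well, by 0.39 and 0.49 (limma, adjusted p = 0.296).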

How the data were processed

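Biotinylated RNA of 8 samples was hybridised to 8 arrays. The deposited values are log2 values that the authors made with RMA in the affy package (submitters' processing notes, versions not given in the sources used here) and were used unchanged. Of 54675 probe sets 62 were controls, 41091 had 1 gene symbol in the platform annotation, 1801 several and 11721 none. Probe sets with several symbols or none were not used for genes. Differences were fitted in R 4.3.3 with limma 3.58.1 (lmFit, eBayes) and Benjamini-Hochberg adjustment over all probe sets above the Bacillus subtilis controls on at least 1 array of the comparison, at a threshold of 0.05. EMT against Epi used 4 arrays (residual df 2, prior df 4.30). sh4 against Scr used 4 arrays with the cell line as a block (residual df 1, prior df 3.31), since the label numbers are those of the cell lines, which pair the arrays (correlation of line differences 0.36). The fits were tested on simulated data.

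The members and lists were chosen with earlier results of these data known. Named were all members, ZEB1, epithelial markers, up to 4 genes of a list with the largest differences that passed, and the nearest patterns to VIM. LIMA1, PALLD, CSRP1, the macrophage and fibroblast markers and the listed genes given without a passed test lie outside this rule and were picked with their values in view. The genes of 1 list are not reported here. Alternatives were other filters, normalizations, probe set rules, variance priors, an added 32 on the linear scale, fits with or without the line block and leaving out arrays. A fold is written as at least a value where all arrays of the dimmer side lay under the controls, against the control level. It uses the mean of the brighter side, so single arrays and the confidence interval may reach lower.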

Additional observations from a re-analysis of the deposited data

Results flagged for a closer look

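In all, 4 probe sets were above the control level on all 4 transduced arrays and moved in opposite directions under sh4 in the 2 lines, which is why they are given here, and the difference between the lines was not tested. The sh4 minus Scr differences in PC3-EMT1 and PC3-EMT14 were -0.027 and 0.28 for CNN3 228297_at. They were 0.32 and -0.28 for TPM1 206116_s_at, and 0.23 and -0.13 for TPM1 238688_at. For TPM2 212654_at they were 0.080 and -0.26.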

How the results depend on the processing

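VIM, ACTA2 and CALD1 kept their calls against PC3-Epi in every alternative run, except that after averaging the probe sets of each gene ACTA2 was too dim to be tested and 1 member was called higher, not 2. By the brightest probe set of each gene, member genes called lower were 2, and 1 to 3 when single EMT lines were left out. The count was 1 without PC3-EMT14, where all calls also fell from 6787 to 3282, although TPM1 238688_at kept its call. The mean of probe sets reversed TAGLN (-0.27) and CNN3 (0.13), and TPM2 ran from -0.11 to 0.037 with lines left out, turning without PC3-EMT12. For sh4, 0 members passed in any alternative, while calls over all probe sets rose from 0 to 31 (quantile), 47 (median centring), 10 (cyclic loess), 4 (32 added) and 2 (eBayes trend). Without the replicate block, the unpaired fit called 1 probe set, and with 6 arrays and the block 228, none of them a member. Leaving out single transduced arrays gave CALD1 values of -0.52 to 0.15 (0.029 without Scr of PC3-EMT14, 0.15 without sh4 of PC3-EMT1). It gave CNN1 -0.14 to 0.053 (0.012 without Scr and 0.053 without sh4 of PC3-EMT14) and TPM2 -0.054 to 0.27 (-0.054 without Scr of PC3-EMT1, -0.0035 without sh4 of PC3-EMT14). These leave-out values are differences of unpaired means, so they include the difference between the cell lines. Paired within PC3-EMT1 and PC3-EMT14, CALD1 212077_at gave -0.30 and -0.07, TPM2 204083_s_at 0.16 and 0.05, and CNN1 0.11 and -0.19. The mean of probe sets turned MYL9 to 0.13 and TPM2 to -0.10. The same averaging moved ZEB1 (2.00), CDH1 (-4.69), TMPRSS2 (-0.58), SYNPO (1.71), TMOD3 (-0.81), MYLK (0.49) and LMNA (0.50) by over 1.5 times with the call kept, and TEAD1 (-0.43) lost it. It also moved MYL9 to -0.12 against PC3-Epi. With 32 added, ZEB1 (1.84) and VGLL3 (-0.69) moved by over 1.5 times and kept their calls, TAGLN went to 0.18 and EGR1 (-0.33) lost its call, as did AXL and PLEC under cyclic loess. The causes were not tested. Of the other values against PC3-Epi, 474 kept direction and call. Signals near the control level limit CNN1, ACTA2 and the dim probe sets.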
